A study of Mus musculus with 4 samples.

Results

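The genes described here encode the chains of the collagens, and they were found by a rule on gene names. A row of the deposited gene table was taken when its gene name read Col, a number, a and a number, and the rule uses no measured value. The rule found 44 collagen chain genes among 28649 rows. By structural class, 11 of them are fibrillar, 6 belong to the type IV collagens of basement membranes, 6 to type VI, 9 to the fibril-associated collagens called FACITs, and 12 to other kinds. The cells were fibro-adipogenic progenitors (FAPs), mesenchymal cells that lie between the fibres of skeletal muscle, sorted as Sca1+ cells from C57Bl/6 mice. Both groups were grown to about 80% confluency, transfected for 24 h with a biotin-tagged microRNA mimic and then kept for 48 h in a medium with 10% horse serum. The miR-206 group received a mimic of miR-206, and the control group received a control mimic, whose sequence the labels do not state. RNA that came down with the biotin tag was sequenced in 2 libraries per group, so each value is a level in pulled-down RNA. No library of unselected RNA was used here, and neither the animals' age and sex nor the origin of the replicates as separate cultures is given. The spread behind the p-values below is thus that of these samples and may be technical.

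Collagens are secreted proteins in which chains wind around each other into a helix, and a given collagen is built from fixed partner chains. Fibrillar collagens form the tensile fibres of connective tissue, type IV collagen forms the sheet-like network of basement membranes, type VI collagen forms beaded filaments around cells, and FACITs sit on the surface of fibrils. FAPs are known as a main source of matrix in muscle and of the collagen laid down in fibrosis. miR-206 is a microRNA enriched in skeletal muscle, and microRNAs bind messenger RNAs mainly through the seed near their 5′ end. The guide strand that the mimic is named for is shown because it is the bait of the pulldown. The line gives the RefSeq mature sequence from 5′ to 3′ with the seed, bases 2 to 8, in capitals.
mmu-miR-206-3p: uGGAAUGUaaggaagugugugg
RefSeq places these 22 bases at chr1:20679055-20679076 on the plus strand of GRCm38.p6, and a full match to the seed in a messenger RNA reads acauucc. Matches in the collagen transcripts were not analysed here.

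The control libraries held 8883197 and 14261566 estimated counts, and the miR-206 libraries 14566568 and 15426666. Log2 levels correlated between the replicates of a group at r = 0.93 for control and 0.96 for miR-206, across genes, and at 0.82 to 0.85 between groups. All 10 FAP markers checked had a mean of at least 1 TPM, a unit that scales counts by transcript length and library, and their summed level was 3211 to 3702 TPM in the control and 4439 to 4618 TPM in the miR-206 libraries. Of the lists for other cell types, 5 of 6 endothelial markers reached that mean, with sums of 79.2 and 30.4 TPM in control and 37.6 and 33.2 TPM in miR-206, and 3 of 6 haematopoietic markers did, with sums of 19.9 and 9.14 against 4.88 and 6.44 TPM. The control libraries gave 5 of 8 pericyte and smooth muscle markers at sums of 79.0 and 79.6 TPM, against 137 and 96.8 TPM in miR-206. For tendon cells, another collagen-rich type, 1 of 3 markers reached the mean, with sums of 15.5 and 6.31 TPM in control and 4.85 and 3.81 TPM in miR-206. Myogenic markers (4 of 7) summed to 27.7 to 42.3 TPM and Schwann cell markers (2 of 4) to 3.02 to 4.95 TPM over all libraries, with the satellite cell marker Pax7, the tendon marker Scx and the Schwann marker Sox10 at 9 counts or fewer in each library. Such sums pool members whose TPM went different ways. Of the FAP markers, Osr1 went from 82.2 and 103 TPM in control to 1345 and 1298 TPM in miR-206. Dcn went the other way in TPM, from 346 and 493 TPM to 143 and 174 TPM. Of the pericyte and smooth muscle markers, Rgs5 rose from 3.56 and 4.85 TPM to 71.2 and 37.7 TPM. Acta2 fell from 65.6 and 65.6 TPM to 23.7 and 17.1 TPM. The part of these cell types in the collagen values was not tested. In bulk pulldowns, fewer cells of a type, less RNA per cell and a difference in capture with the mimics cannot be told apart. The groups also differed in composition. The trimmed-mean (TMM) scaling factors, which correct library size for it, were 1.62 and 1.34 in control and 0.624 and 0.737 in miR-206, so a fold change on TMM-normalised counts is relative to the bulk of the genes in a library.

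Collagen messages made up a smaller share of the miR-206 pulldowns than of the control pulldowns. Of all counts, the 44 genes took 0.998% and 0.963% in control against 0.315% and 0.367% in miR-206. The 95% Wilson interval, which covers counting error only, was 0.958% to 0.968% in control replicate 2 and 0.364% to 0.370% in miR-206 replicate 2, the libraries nearest to each other across the groups. The mean share was 0.981% ± 0.0252 (SD, n = 2) in control and 0.341% ± 0.0372 in miR-206, which is 2.88-fold higher in control. On the TPM scale, which divides by transcript length, the summed level was 2043 and 2106 in control against 736 and 778 in miR-206, a 2.74-fold difference in the same direction. Genes as a whole were also lower on these scales. The median log2 fold of all genes tested, miR-206 over control, was -1.22 on total counts and -0.82 on log2(TPM + 1). On TMM-normalised counts scaled to library size (CPM) the collagen gap was smaller, with sums of 6173 and 7203 in control and 5046 and 4988 in miR-206, or 1.33-fold. In a design of 2 against 2 an exact permutation test of a sum cannot go below p = 0.333 (two-sided), so the sums carry no call.

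**Figure D1:**
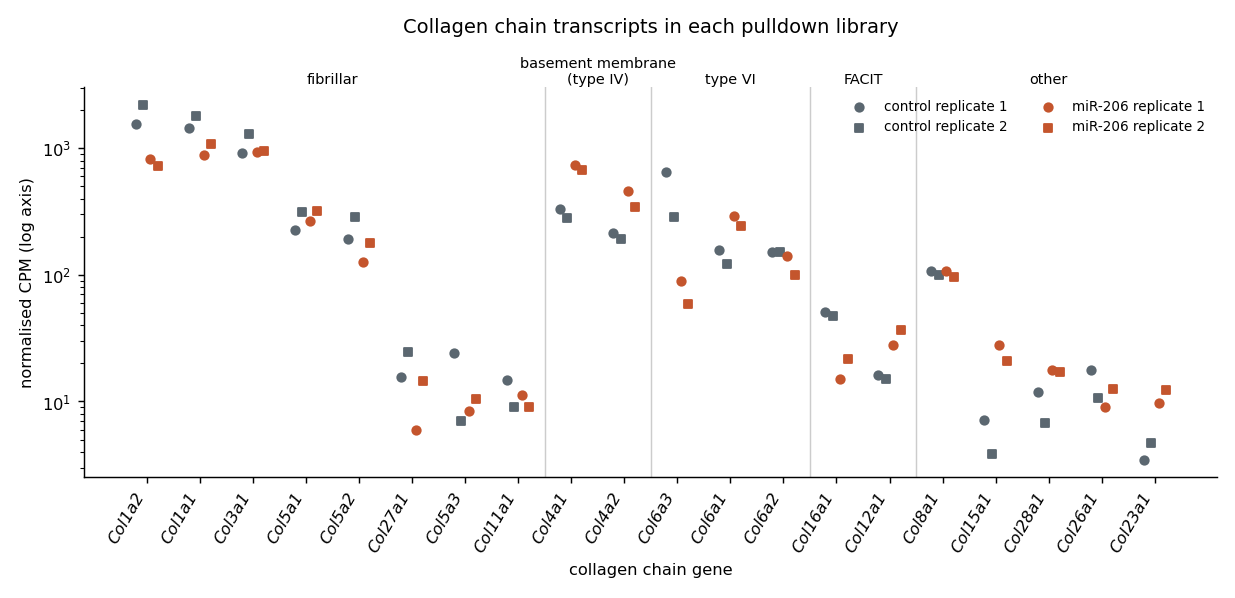
TMM-normalised CPM (log axis) of the collagen chain genes that were called or averaged at least 10 CPM, with 1 point per library for the 2 control and 2 miR-206 libraries. Col6a3 falls from 650.0 and 287 CPM to 89.7 and 58.4 CPM, while Col4a1 rises from 329 and 281 CPM to 737 and 674 CPM.

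The family did not move as a block. Of the 44 genes, 36 passed the filter on low counts and were tested with edgeR's quasi-likelihood test, with p-values adjusted over all 15240 genes. The miR-206 libraries were higher for 6 collagens (16.7%) at an adjusted p under 0.05, against 15.3% of all genes tested, and lower for 3 collagens (8.33%), against 6.19% of all genes. The remaining 27 did not pass. These shares lie near those of all genes. Both miR-206 values lay above both control values for 8 of the 36, where 29.7% of all genes did so, and below them for 13 of the 36, where 32.3% did so. The median log2 fold change, miR-206 over control, was -0.38 over the 36 collagens and -0.11 over all genes, with 24 collagens negative and 12 positive. The median of the collagens was -0.08 without control replicate 1 and -0.24 without miR-206 replicate 1, beside -0.05 and -0.17 for all genes, so its distance from all genes rests on those libraries. Without miR-206 replicate 1, a total of 1 collagen was called higher and 1 lower, and without miR-206 replicate 2 it was 3 higher and 4 lower. The 6 called higher were Col4a1, Col4a2, Col6a1, Col12a1, Col15a1 and Col23a1, and the 3 called lower were Col1a2, Col6a3 and Col16a1. The counts depend on the scaling. With library size as total counts alone, edgeR called 0 collagens higher (0 also at an unadjusted p under 0.05, against 6 by DESeq2 with its own size factors) and 17 lower, and all genes split into 1070 higher and 6909 lower, with the median of all genes at -1.22. With limma on log2(TPM + 1) it was 1 collagen higher and 14 lower, with all genes at 1103 higher and 5698 lower. Upper-quartile scaling gave 2 collagens higher and 5 lower, with all genes at 1870 higher and 1962 lower. Higher calls made up 71.1% of all calls under TMM, 48.8% under upper-quartile scaling, 13.4% under total counts and 16.2% on log2(TPM + 1). With the median of all genes subtracted, which removes any shift that a scaling gives to all genes alike, the log2 fold of Col6a3 in 6 scalings lay between -2.95 and -2.55, that of Col15a1 between 2.02 and 2.27 and that of Col4a1 between 1.09 and 1.32. That of Col5a1 took both signs, from -0.22 to 0.26. The edgeR scalings use the same counts and differ mainly by such a shift, so their closeness is largely built in.

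**Figure D2:**
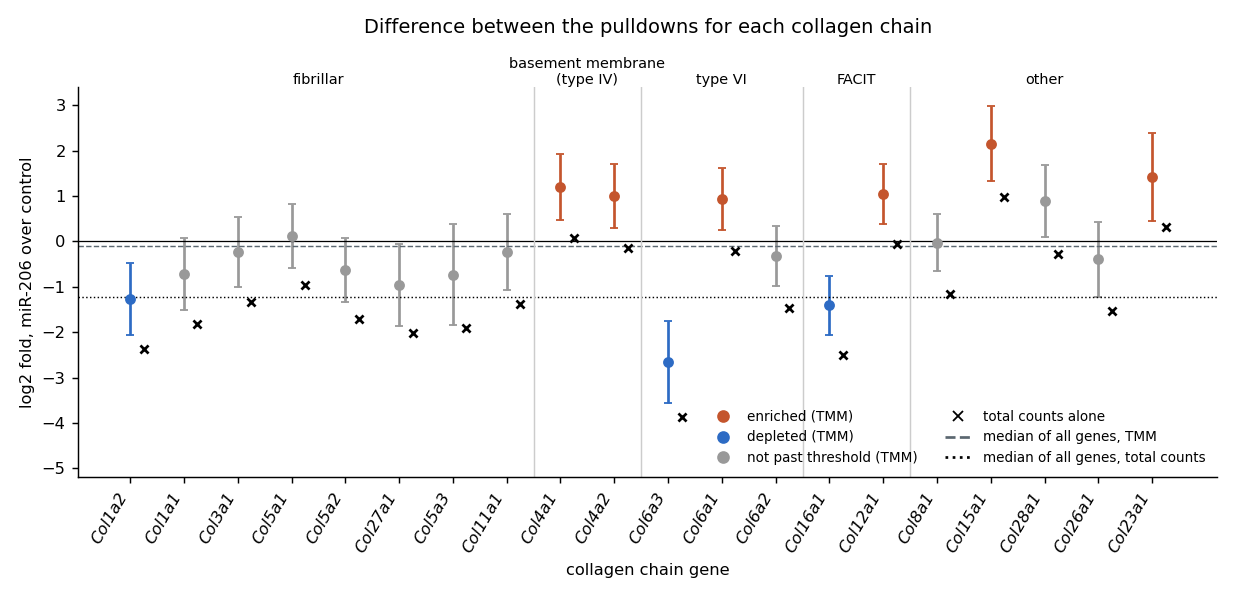
Log2 fold change, miR-206 over control (vertical axis), by collagen class, as points with 95% intervals from edgeR under TMM (red called higher, blue called lower, grey not past the threshold) and as crosses under total counts, with dashed and dotted lines at the medians of all genes, -0.11 and -1.22. The intervals of the 6 red genes lie above 0 and those of the 3 blue genes below it, with Col6a3 at -2.66 and Col15a1 at 2.16, and every cross lies below its point.

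Among the fibrillar collagens 1 of 10 tested chains was called, and it was lower in miR-206 (10%, beside 6.19% of all genes). On total counts 8 of the 10 were called lower, where 45.3% of all genes were. Col1a2, on chromosome 6 (GRCm38, chr6:4505618-4541543), encodes the α2 chain of type I collagen, the main collagen of fibrous tissue. It measured 1557 and 2195 CPM in control against 828 and 729 CPM in miR-206. All miR-206 values lay below all control values, and Col1a2 went from the first place among the collagens by mean TPM in control to rank 3 in miR-206. Its log2 fold change was -1.27 ± 0.38 (SE, 95% interval -2.07 to -0.47, adjusted p = 0.0232). The call was lost without control replicate 2 (adjusted p = 0.172), without miR-206 replicate 1 (0.0540) and without miR-206 replicate 2 (0.0940). Col1a1 (chr11:94936224-94953042) encodes the α1 chain that assembles with it and measured 1442 and 1791 CPM in control against 888 and 1079.6 CPM in miR-206. The groups did not overlap, yet the change of -0.72 ± 0.37 (-1.50 to 0.07) did not pass under TMM, at an adjusted p of 0.195. Col1a1 was called lower in 5 of 14 alternatives and stayed uncalled in 9. By edgeR it passed with upper-quartile scaling (adjusted p = 0.0317) and on total counts (-1.81, 0.000342). By limma it passed on log2(TPM + 1) (-1.64, 0.0038), log2(TPM + 0.1) (-1.65, 0.0043) and median-centred TPM (-0.91, 0.0481). Col3a1 (chr1:45311538-45349706), the chain of type III collagen that copolymerises with type I in soft tissues, gave 914 and 1297 CPM in control and 930.0 and 951 CPM in miR-206. Its groups overlapped, and the interval of its log2 change ran from -1.01 to 0.54 (adjusted p = 0.707).

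The type V chains regulate the diameter of type I fibrils. Col5a1 (chr2:27886381-28039510) measured 225 and 315 CPM in control and 267 and 321 CPM in miR-206, with overlapping groups and a log2 change of 0.12 ± 0.33 (-0.58 to 0.83, adjusted p = 0.832). This sign is not settled, since the value was -0.15 under upper-quartile scaling, -0.30 on median-centred TPM and -0.96 on total counts. Its partner Col5a2 (chr1:45374331-45503282), which lies near Col3a1 on chromosome 1, measured 191 and 284 CPM against 127 and 180 CPM. The miR-206 values lay below both control values, at -0.63 ± 0.34 (-1.34 to 0.08, adjusted p = 0.212). Col27a1, a fibrillar chain of cartilage and other tissues, measured 15.5 and 24.4 CPM in control and 5.94 and 14.4 CPM in miR-206, also without overlap (-0.96 ± 0.42, adjusted p = 0.127). Col5a3, the further type V chain, and Col11a1, a chain of type XI collagen, stayed between 7.03 and 24.2 CPM in all libraries and did not pass (adjusted p = 0.356 and 0.739). In all, 9 of the 10 tested fibrillar chains had a negative estimate, beside 54.4% of all genes. On the low side 6 were without overlap, beside 32.3% of all genes, and these include Col2a1, with 5 to 18 counts in a library, and Col24a1. The median log2 fold of the 10 was -0.62 beside -0.11 for all genes.

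The type IV chains Col4a1 and Col4a2 were both higher in the miR-206 pulldowns. These genes encode the partner chains of the type IV collagen found in nearly all basement membranes. They lie head to head on chromosome 8, with Col4a1 at chr8:11198423-11312889 and Col4a2 at chr8:11312805-11449287, and the annotated spans share 85 bases at their starts. Col4a1 measured 329 and 281 CPM in control and 737 and 674 CPM in miR-206. Both miR-206 libraries were above both control libraries, and the log2 change was 1.21 ± 0.34 (0.48 to 1.93, adjusted p = 0.0170). Col4a2 measured 213 and 192 CPM in control and 463 and 346 CPM in miR-206, again without overlap, with a log2 change of 1.00 ± 0.33 (0.30 to 1.70, adjusted p = 0.0407). Neither call was stable to leaving out a library. That of Col4a1 was lost without control replicate 2 (adjusted p = 0.0944) or miR-206 replicate 1 (0.0798), and that of Col4a2 without control replicate 1 (0.0579), control replicate 2 (0.130) or miR-206 replicate 1 (0.351). In TPM, with no correction for composition, Col4a1 was 70.6 and 57.5 in control and 78.1 and 76.3 in miR-206, a much smaller step, and Col4a2 overlapped at 46.9 and 40.3 against 50.3 and 40.3. On total counts the log2 change of Col4a2 was -0.15. Of the other 4 type IV chains, which build the networks of specialised membranes such as that of the kidney glomerulus, Col4a5 was the most abundant at 7.80 and 12.1 CPM in control and 5.39 and 6.60 CPM in miR-206, and none passed.

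Because a share of the collagen total does not depend on library scaling, the make-up of the collagen RNA was set out by class in TPM. Type IV chains took 6.02% and 4.98% of collagen TPM in control and 17.7% and 15.3% in miR-206, or 5.50% ± 0.739 against 16.5% ± 1.71 (SD, n = 2 each). The groups were apart, and the exact permutation p was 0.333, the smallest possible. Fibrillar chains were the largest class in every library, with 62.1% and 76.8% in control and 60.1% and 63.4% in miR-206, and the groups overlapped (exact p = 0.667). Type VI chains took 21.6% and 10.6% in control and 12.6% and 9.83% in miR-206, also overlapping. FACITs lay between 2.98% and 4.97% in all libraries, and the other kinds took 5.26% and 3.67% in control and 6.61% and 6.89% in miR-206. Within the fibrillar class, Col1a2 took 20.6% and 26.6% of collagen TPM in control and 15.0% and 13.4% in miR-206, without overlap. Col3a1 took 18.4% and 23.3% in control and 24.8% and 23.1% in miR-206, with overlap.

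**Figure D3:**
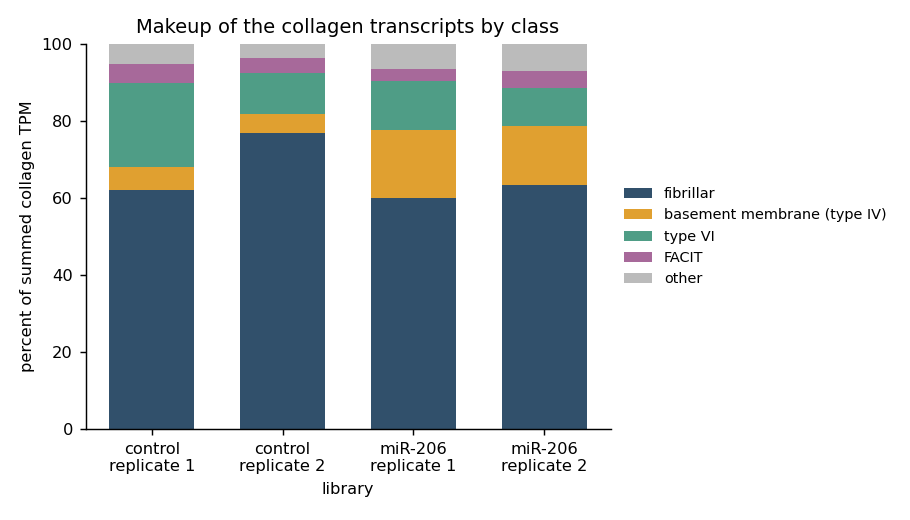
Share of summed collagen TPM (percent) taken by each collagen class in each of the 4 libraries. Type IV chains take 6.02% and 4.98% in control against 17.7% and 15.3% in miR-206, while fibrillar chains are the largest class in all 4.

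Of 6 tested type VI chains, 1 was called lower and 1 higher (16.7% each, beside 6.19% and 15.3% of all genes), and 4 did not pass. Col6a3 (chr1:90766860-90844001) encodes the α3 chain, the largest of the filament-forming chains. It had 9339 and 5467 estimated counts in control and 815 and 663 in miR-206, which is 650.0 and 287 CPM against 89.7 and 58.4 CPM. The lower control library was still above both miR-206 libraries, and control replicate 1 stood well above the other control library. The log2 change was -2.66 ± 0.42 (-3.57 to -1.76, adjusted p = 0.000226), and Col6a3 dropped from rank 4 to rank 12 among the collagens by TPM. This call held in all 14 alternative settings, with log2 values from -3.86 to -1.94, the latter without control replicate 1. Col6a1 (chr10:76708792-76726044), the α1 chain, had the higher call, with 156 and 123 CPM in control and 292 and 241 CPM in miR-206 (0.93 ± 0.32, 0.25 to 1.62, adjusted p = 0.0482). Its groups did not overlap, but it lay close to the threshold, and the call was lost without control replicate 2 (0.166), miR-206 replicate 1 (0.326) or miR-206 replicate 2 (0.0571), and on total counts the sign turned to -0.21. In all, this call was lost with the sign kept in 8 of 14 alternatives. It was also lost on total counts, where the turned estimate did not pass (adjusted p = 0.505 by edgeR). Col6a2 (chr10:76595756-76623630), the α2 chain encoded near Col6a1 on chromosome 10, measured 153 and 150 CPM in control and 142 and 99.6 CPM in miR-206, and did not pass (-0.33 ± 0.31, -0.99 to 0.34, adjusted p = 0.512). The alternative chains Col6a4, Col6a5 and Col6a6 were low. Col6a6 had 4 and 17 counts in control and 26 and 34 in miR-206, apart but not past the threshold (2.28 ± 0.97, adjusted p = 0.109).

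Of 6 FACITs tested, 1 was called lower and 1 higher (16.7% each, beside 6.19% and 15.3% of all genes). Col16a1 (chr4:130047817-130099277), the chain of type XVI collagen, measured 50.7 and 47.1 CPM in control and 15.2 and 21.7 CPM in miR-206. The groups did not overlap, and the log2 change was -1.40 ± 0.31 (-2.05 to -0.76, adjusted p = 0.0026). The call was lost without miR-206 replicate 1 (adjusted p = 0.0552). Col12a1 (chr9:79598987-79721141), the chain of type XII collagen, which binds type I fibrils in tendon and muscle connective tissue, was higher, with 16.3 and 15.1 CPM in control and 28.2 and 36.7 CPM in miR-206. Its log2 change was 1.05 ± 0.31 (0.39 to 1.71, adjusted p = 0.0224), lost without miR-206 replicate 1 (0.0718) or miR-206 replicate 2 (0.278), and on total counts the value was -0.06. In TPM its groups overlapped, at 8.87 and 7.12 in control and 8.65 and 13.3 in miR-206.

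Among the other kinds, 2 of 8 tested chains were called, both higher in miR-206 (25%, beside 15.3% of all genes). On total counts none of the 8 was higher by edgeR, also at an unadjusted p under 0.05, and 5 were lower. Of all genes, 7.02% were called higher and 45.3% lower on that scale. Col15a1 (chr4:47207655-47313167) encodes type XV collagen, which links basement membranes to the fibres beneath them and, like type XVIII, carries an endostatin-type domain. It had 102 and 73 counts in control and 253 and 236 in miR-206, or 7.10 and 3.83 CPM against 27.8 and 20.8 CPM. Every miR-206 value was above every control value, in TPM as well (5.14 and 2.72 against 11.2 and 8.88). The log2 change was 2.16 ± 0.39 (1.33 to 2.99, adjusted p = 0.00053), and the only alternative that lost the call was total counts (0.99, adjusted p = 0.0869). Col23a1 (chr11:51289679-51583925), a transmembrane collagen, measured 3.48 and 4.72 CPM in control and 9.69 and 12.2 CPM in miR-206 (1.41 ± 0.46, 0.45 to 2.38, adjusted p = 0.0353). Its call was lost in 7 of 14 alternatives, among them upper-quartile scaling (log2 1.14), total counts (0.33) and log2(TPM + 1) (0.27). It was also lost without either miR-206 replicate, at a log2 change of 1.53 without replicate 1 and 1.25 without replicate 2. The rest of this group did not pass. Col8a1, a network-forming chain of vessel walls, measured 107 and 100.2 CPM in control and 107 and 97.1 CPM in miR-206, with an interval of -0.65 to 0.60 under TMM. In TPM it was 30.1 and 26.7 against 14.8 and 14.4, and it was called lower on total counts (-1.15, adjusted p = 0.0029). Col18a1, the endostatin-bearing relative of Col15a1, measured 8.77 and 6.19 CPM in control and 6.38 and 3.52 CPM in miR-206 (-0.60, -1.67 to 0.48, adjusted p = 0.451). Col28a1 had 11.9 and 6.82 CPM against 17.6 and 17.0 CPM, apart but at an adjusted p of 0.109, and on total counts its log2 value was -0.27. Col7a1, the chain of the anchoring fibrils of skin, had 13.4 and 10.4 CPM against 2.42 and 8.27 CPM, apart on the low side at an adjusted p of 0.141. Col26a1 overlapped, at 17.8 and 10.6 CPM in control and 9.03 and 12.6 CPM in miR-206.

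Chains that assemble with each other, and the relatives Col15a1 and Col18a1, which do not, were compared as TPM ratios within each library, which cancels the scaling between libraries. Of 8 pairs listed, 7 gave a ratio, since Col8a2 was listed at 0 in 1 library. In all 7 the control and miR-206 ratios did not overlap, and each exact permutation p was 0.333, the smallest this design allows. How often ratios of other gene pairs lie apart was not determined. Single genes were often apart in CPM, with 29.7% of all genes higher and 32.3% lower in miR-206. The type VI ratios share their chains, so they do not count as separate results. The widest shift was Col6a3 over Col6a1, with ratios of 6.03 and 3.16 in control and 0.327 and 0.278 in miR-206, a log2 difference of -3.86. The control ratios themselves were spread, and without control replicate 1 the difference was -3.39. Col6a3 over Col6a2 went from 6.26 and 2.63 to 0.674 and 0.670 (-2.59), and Col6a1 over Col6a2 from 1.04 and 0.830 to 2.06 and 2.41 (1.26). Col15a1 over Col18a1 was 1.24 and 0.892 in control and 4.32 and 8.20 in miR-206 (2.50). The partner chains of the other collagens stayed closer together. Col1a1 over Col1a2 was 0.824 and 0.733 in control and 0.957 and 1.31 in miR-206 (0.53), and Col5a1 over Col5a2 was 1.44 and 1.38 against 1.90 and 2.15 (0.52). Col4a1 over Col4a2 differed by 0.22, at 1.51 and 1.43 against 1.55 and 1.89. Without miR-206 replicate 2 this difference was 0.08 and that of Col1a1 over Col1a2 was 0.30, and without miR-206 replicate 1 that of Col4a1 over Col4a2 was 0.37.

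**Figure D4:**
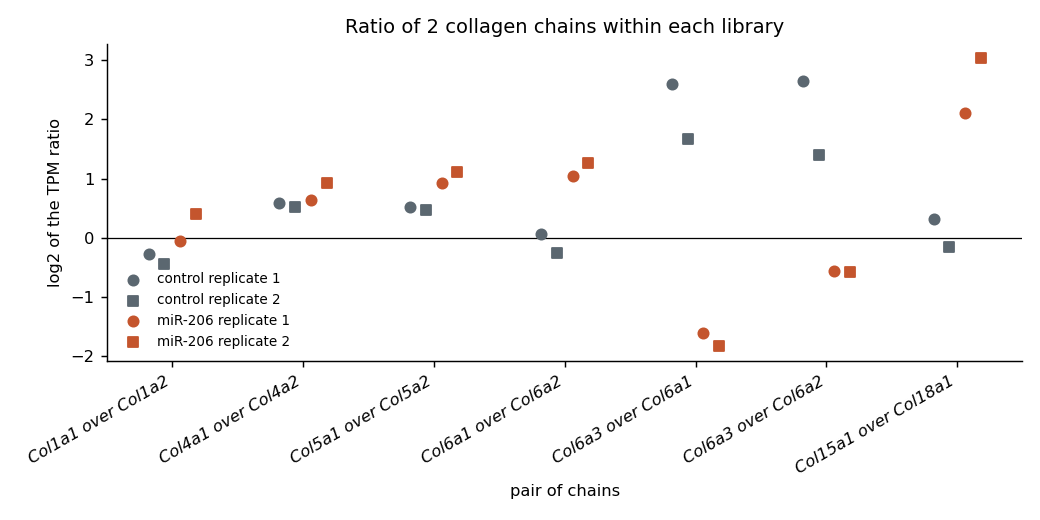
Log2 of the TPM ratio between paired collagen chains in each of the 2 control and 2 miR-206 libraries. The plain ratio of Col6a3 to Col6a1 is 6.03 and 3.16 in control and 0.327 and 0.278 in miR-206, while Col4a1 to Col4a2 stays between 1.43 and 1.89.

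The remaining 24 chains were low. Of these, 16 were tested, with means of 0.533 to 8.61 CPM and at most 230 counts in a library. Under TMM their log2 changes ran from -2.55 to 2.28 and the smallest adjusted p was 0.109. On total counts Col4a5, Col7a1, Col13a1 and Col18a1 were called lower, where 45.3% of all genes were. Col4a5, Col13a1 and Col24a1 were called lower on log2(TPM + 1). Without control replicate 2 Col6a6 passed, and without miR-206 replicate 2 Col7a1 did. The other 8 (Col20a1, Col11a2, Col17a1, Col8a2, Col25a1, Col9a1, Col10a1 and Col9a2) did not pass the filter, with at most 78 counts over all libraries. They include chains of cartilage (Col9a1, Col9a2, Col10a1, Col11a2) and of epithelial attachment (Col17a1). Col8a2, Col9a2 and Col11a2 were at 0 in miR-206 replicate 1, and Col9a3 and Col25a1 in control replicate 2. A count of 0 allows up to 3 counts, which was 0.157 CPM in control replicate 2 and 0.330 CPM in miR-206 replicate 1.

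The count obtained per unit of TPM reflects the transcript length assigned to a gene by the authors' estimation. Over 11432 genes with at least 20 counts in each library the miR-206 to control ratio of this index had a median of 1.00, and its lower and upper deciles were 0.925 and 1.18. Col6a3 stood at 1.27, with indices of 36.0 and 38.4 in control and 48.9 and 45.3 in miR-206. Among the collagens the index ran from 0.715 for Col18a1, whose TPM enters the ratio to Col15a1, to 1.79 for Col24a1, with Col12a1 at 0.80 and Col5a1 at 1.20. The TPM of Col6a3 was 332 and 131 in control and 16.6 and 12.5 in miR-206, so its direction was the same as in counts. The part of isoform assignment in these changes was not tested.

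The authors' deposited table of log2 fold changes, which carries no p-values, holds 29 of the collagens among 14870 rows. Of these, 5 collagens in the authors' deposited table were positive and 24 negative, with a median of -1.25 against -0.89 for all its rows, of which 18.8% were positive. Col15a1 at 1.35 and Col23a1 at 0.49 were at the top of the collagens in the authors' deposited table, and Col6a3 at -3.99, Col16a1 at -2.41 and Col1a2 at -2.20 were at the low end. Col4a1 stood at 0.27, Col4a2 at 0.06 and Col6a1 at -0.01 in the authors' deposited table. All 5 positive collagens there were among the 6 called higher from the counts. That table rests on mean TPM of the same libraries, so this overlap is no independent check. For some of its negative collagens, such as Col24a1, it lists a miR-206 mean of 0 where the libraries gave 0.645 TPM.

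Genes that act on collagen after its messages are made were counted in 4 lists. Of 19 tested genes for folding and modification in the endoplasmic reticulum, 7 were higher (36.8%, beside 15.3% of all genes) and 2 lower (10.5%, beside 6.19%) in miR-206, with a median log2 fold of 0.22. On total counts 3 were higher and 12 lower, where 7.02% and 45.3% of all genes were. Of the 7 called higher under TMM, Plod1, P3h4 and Tmem38b kept the call in only 1 of 5 other scalings. Each of them changed sign in at least 1 alternative. Plod3 kept its call in 3 of 5 scalings. P4ha3, a catalytic subunit of the prolyl hydroxylase that stabilises the collagen helix, went from 19.9 and 35.6 CPM in control to 3041 and 4281 CPM in miR-206 (7.04 ± 0.53, adjusted p = 8.3e-08). P3h2, a prolyl 3-hydroxylase that acts on type IV collagen among others, rose by 5.38 ± 0.45 on the log2 scale (3.1e-07). The peptidyl-prolyl isomerases of the endoplasmic reticulum went both ways. Fkbp10, which acts on collagen folding and crosslinking, was higher (2.91 ± 0.41, adjusted p = 3.3e-05), while Fkbp9 (-5.90 ± 0.59, 1.3e-06) and Fkbp14 (-3.11 ± 0.40, 3.2e-05) were lower. Serpinh1, the collagen chaperone Hsp47, and P4hb, the other subunit of the prolyl hydroxylase, had estimates of -0.73 and -0.47 and did not pass (adjusted p = 0.193 and 0.386).

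Of 18 tested genes for export, propeptide removal and crosslinking, 3 were higher (16.7%, near the 15.3% of all genes), and DESeq2 called 5 higher. None was lower by edgeR under TMM or by DESeq2, and 1 was lower by edgeR at an unadjusted p under 0.05. On total counts edgeR called 3 higher and 8 lower, where 7.02% and 45.3% of all genes were. Vps33b, a trafficking protein that delivers a lysyl hydroxylase to collagen, rose by 5.79 ± 0.40 (8.3e-08), Adamts14, a procollagen N-proteinase, by 5.41 ± 0.47 (2.9e-07), and Ctage5, a partner in the export of large cargo from the endoplasmic reticulum, by 2.56 ± 0.32 (9.9e-06). Lox, which crosslinks collagen, lay at 0.93 ± 0.40 and did not pass (adjusted p = 0.107). Of 9 tested receptors and uptake genes, 5 were higher (55.6%, beside 15.3% of all genes), with a median of 1.30. On total counts 2 were higher and 2 lower, beside the same 7.02% and 45.3% of all genes. Itga11, the α subunit of a fibroblast integrin that binds fibrillar collagen, went from 9.33 and 23.2 CPM to 426 and 562 CPM (4.92 ± 0.47, 1.3e-06). The collagen-activated kinase Ddr1 rose by 3.51 ± 0.34 (5.9e-07), and Ddr2, Itga1 and Itga2 also passed. The call of Ddr2 held in only 1 of 5 other scalings and in 1 of 4 fits that left out a library (adjusted p up to 0.433). Those of Itga1 and Itga2 held in 3 of 5 scalings and were lost without miR-206 replicate 1 (0.247 and 0.170). Itgb1, the shared β subunit, did not pass (-0.40 ± 0.33, adjusted p = 0.421). Of 7 tested breakdown genes only Mmp14, a membrane-bound collagenase, was called, and it was lower in miR-206 (14.3%, beside 6.19% of all genes). Its log2 change was -1.05 ± 0.36 (adjusted p = 0.0424), and its call was lost without control replicate 2 or without either miR-206 replicate. The 10 genes P4ha3, P3h2, Fkbp9, Fkbp10, Fkbp14, Vps33b, Adamts14, Ctage5, Ddr1 and Itga11 kept their call and direction in 5 scalings and with each library left out. The medians of the lists are set beside -0.11 for all genes.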

How the data were processed

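The authors deposited, for each library, estimated counts and TPM per gene, and a table of log2 fold changes, per the file headers. FastQC, kallisto and the build mm10 are named, per the submitters' processing notes. Libraries were made with SMARTer and Ovation V2 kits, per the labels' protocols. The way transcripts were joined into genes is not stated. The estimated counts, rounded to whole numbers, were tested with edgeR 4.0.16 in R 4.3.3 (filterByExpr, TMM, robust quasi-likelihood fit on group, Benjamini-Hochberg adjustment over 15240 genes, threshold 0.05). The SE is the log2 fold divided by the root of the F statistic. Alternatives used other scalings, filters of none or 50 counts, DESeq2 1.42.0, limma 3.58.1 on log2(TPM + 1) or log2(TPM + 0.1), the replicate number as a block and each library left out. Collagens that were called or averaged at least 10 CPM were named with values, and so were others that show a class or a limit. The naming rule uses no measured value, but the collagens as a subject, and the gene lists, were chosen with earlier results of these data known. Same-numbered libraries deviated together at r = -0.08 over 15240 genes, with 2 pairs, so the numbers were not taken to pair the samples. Sequence and positions come from RefSeq GRCm38.p6, in which all 44 collagens matched by symbol. The sheet of transcription factors was not used.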

Additional observations from a re-analysis of the deposited data

How the results depend on the processing

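Over 20 collagens and 14 alternatives each, 193 of the values kept their direction and side of the threshold. With the sign kept, 38 lost the call and 31 gained one. The other 18 turned sign, and some of these changed their call as well. On total counts Col4a2, Col6a1 and Col12a1 turned sign and lost their calls, and Col5a1 turned sign and gained one. On total counts the sign turned for Col4a2 (-0.147), Col6a1 (-0.214), Col12a1 (-0.059), Col28a1 (-0.267) and Col5a1 (-0.962), and on log2(TPM + 1) for Col28a1 (-0.0074) and Col5a1 (-1.04). Col5a1 also turned with upper-quartile scaling (-0.151), on median-centred TPM (-0.303) and on log2(TPM + 0.1) (-1.06). With a library left out, the range of the log2 fold spanned 0 for Col5a1 (-0.078 to 0.429), Col3a1 (-0.444 to 0.083), Col8a1 (-0.144 to 0.052), Col26a1 (-0.676 to 0.044), Col5a3 (-1.32 to 0.437) and Col11a1 (-0.501 to 0.186), none of them called with all libraries. The upper ends of Col5a3, Col11a1 and Col26a1 are without control replicate 1. Genes called higher numbered 1070 on total counts, 1103 on log2(TPM + 1) and 1072 on log2(TPM + 0.1), beside 2327. Genes called lower numbered 1962 with upper-quartile scaling, 6909 on total counts, 5698 on log2(TPM + 1) and 5444 on log2(TPM + 0.1), beside 944, and 358 to 1535 with a library left out. Collagens called higher numbered 2 with upper-quartile scaling, 0 by edgeR on total counts, 1 on either TPM scale and 3 on median-centred TPM, beside 6, and 1 to 6 with a library left out. Collagens called lower numbered 5 with upper-quartile scaling, 17 on total counts and 14 on either TPM scale, beside 3, and 1 to 4 with a library left out. With the replicate block, 4 collagens were higher and 5 lower, and Col4a2 (adjusted p = 0.052) and Col6a1 (0.0546) lost their calls while Col27a1 and Col7a1 gained one. The control and miR-206 libraries share only a number, so this block has no stated basis. DESeq2, its size factors in edgeR and the filter of 50 counts gave 6 higher and 3 lower, and no filter gave 6 and 4. The groups were apart in all 7 chain ratios, so leaving out a library could not turn their direction and is no check of it. The log2 difference between the groups in a chain ratio could change in size by over 1.5 times. The values for Col4a1 over Col4a2 and Col1a1 over Col1a2 are given above.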
